A study of Mus musculus with 8 samples.

Results

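The 10 genes described here control how pyruvate enters mitochondrial oxidation: the 4 pyruvate dehydrogenase kinases Pdk1, Pdk2, Pdk3 and Pdk4, the phosphatase catalytic subunits Pdp1 and Pdp2, the E1 subunits Pdha1 and Pdhb, and the mitochondrial pyruvate carrier subunits Mpc1 and Mpc2. They were chosen by symbol, for their shared role, with earlier results of these data known. All 10 were among the 27189 genes with reads in at least 1 library, and all 10 passed the filter on low values (a normalized count averaging 10 or more) that left 15657 genes for testing. RNA was sequenced from white quadriceps, the pale region of this thigh muscle that holds mainly fast fibres. All mice were males of 11 to 14 weeks, were given a diet with 60% fat over 7 days, and had their muscle taken in the morning. In the 4 knockout libraries (replicates 5 to 8), the mice carried loxP-flanked Acot2 and a CKM Cre, a recombinase under the muscle creatine kinase promoter. In the 4 control libraries (replicates 1 to 4), they carried loxP-flanked Acot2 and no Cre. The Acot2 product, a thioesterase of the mitochondrial matrix, releases fatty acid and coenzyme A from acyl-CoA. That promoter is active in skeletal and heart muscle, so other cells of the tissue keep the gene. Cre was present only in the knockouts, so effects of Cre and of the loss of Acot2 cannot be told apart. The sources used here do not give the strain, and none states that the libraries are from different animals. The p-values therefore describe the spread among these samples, which may be technical.

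The pyruvate dehydrogenase complex turns pyruvate into acetyl-CoA and so commits carbon from glucose to oxidation. The kinases phosphorylate its E1 alpha subunit and switch it off, the phosphatases reverse this, and the carrier brings pyruvate across the inner mitochondrial membrane. In skeletal muscle Pdk4 mRNA is known to be raised by fasting and by fat feeding and lowered by insulin, and its level is often read as a sign of the choice between fat and glucose. The comparison asks whether the mRNAs of this switch differ without Acot2 when lipid supply is high. Phosphorylation of the complex, its activity and fuel use were not measured in these files.

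The stretches upstream of 4 members are shown: Pdk4 and Pdk2 made up nearly all of the kinase mRNA, and Pdha1 and Pdhb encode the paired E1 subunits on which the kinases act. Each runs 5′ to 3′ on the gene's own strand, covers 200 bases (from 250 to 51 bases before the RefSeq start in build GRCm38.p6), and is printed in lower case with motif matches in capitals.
Pdk4, chr6:5496329-5496528, minus strand: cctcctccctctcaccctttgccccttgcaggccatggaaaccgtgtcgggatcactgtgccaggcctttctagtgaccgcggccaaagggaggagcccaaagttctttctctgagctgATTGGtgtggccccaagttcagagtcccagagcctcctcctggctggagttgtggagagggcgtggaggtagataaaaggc
Pdk2, chr11:95041422-95041621, minus strand: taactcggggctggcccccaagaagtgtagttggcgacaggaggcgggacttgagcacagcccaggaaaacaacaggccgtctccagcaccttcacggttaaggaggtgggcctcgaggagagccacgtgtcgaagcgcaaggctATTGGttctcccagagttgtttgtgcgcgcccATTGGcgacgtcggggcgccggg
Pdha1, chrX:160138481-160138680, minus strand: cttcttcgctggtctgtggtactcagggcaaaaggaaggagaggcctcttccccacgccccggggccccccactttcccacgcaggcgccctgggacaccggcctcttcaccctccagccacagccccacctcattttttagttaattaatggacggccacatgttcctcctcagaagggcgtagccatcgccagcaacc
Pdhb, chr14:8173043-8173242, minus strand: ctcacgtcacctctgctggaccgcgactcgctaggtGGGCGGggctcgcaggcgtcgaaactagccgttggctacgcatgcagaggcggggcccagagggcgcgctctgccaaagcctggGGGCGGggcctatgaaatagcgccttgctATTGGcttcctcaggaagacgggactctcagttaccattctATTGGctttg
The motifs searched, on both strands, were the CCAAT box (CCAAT), the GC box (GGGCGG), the TATA box (TATAAA), the nuclear receptor half-site (AGGTCA), the FoxO core (GTAAACA) and the glucocorticoid receptor half-site (AGAACA). Of 32851 RefSeq promoters of the same window, 28.4% held CCAAT, 24.6% GGGCGG, 9.14% TATAAA, 11.4% AGGTCA, 2.58% GTAAACA and 13.2% AGAACA. The Pdk4 window held 1 CCAAT match and 5 CpG, and the Pdk2 window 2 CCAAT matches and 16 CpG, against a median of 4 CpG over all promoters. The Pdhb window held 2 GC boxes and 2 CCAAT matches, while the Pdha1 window held none of the 6 motifs. Sequences were found for 9 of the 10 members, all but Pdp1. No match in the printed windows overlaps another, and a match is a run of letters, not a shown binding site.

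The targeted gene followed the labels. Acot2 had normalized counts (reads scaled for library depth) of 325, 273, 256 and 354 in knockout replicates 5 to 8, against 2179, 3348, 4165 and 2166 in control replicates 1 to 4. It fell by 3.24 on the log2 scale (SE 0.20; limma adjusted p = 4.72e-06) and was the only gene called, 0.00639% of those tested. That count depended on the libraries and the variance model: it was 1720 without control 1, 2048 without control 2 and 1201 with sample quality weights. Of its 50-base stretches, 27.7% also occur in other genes, among them Acot1. Depth, recovered from the deposited values, was 55283989 to 74996042 reads in knockouts and 70275631 to 109101279 in controls. Fast-fibre markers such as Myh4, the fastest myosin heavy chain, were abundant in every library, as the tissue label implies. The 6 markers summed to between 7064378 and 7725574 in knockouts and between 6200434 and 7667241 in controls. Single markers went different ways. Pvalb was higher without overlap, at 1333050 to 2148055 in knockouts against 708691 to 1331018 in controls. Mybpc2 was lower without overlap, at 208645 to 274795 in knockouts against 278052 to 349661 in controls. Neither was called. Control replicates 3 and 4 stood apart from the rest: their scores on principal component 1 were 55.2 and 56.1, where the other libraries had -38.6 to 0.56 (this axis held 34.5% of the variance). They were together the highest or together the lowest of the 8 libraries for 43.9% of genes tested. Knockout replicate 8 was the highest library for all 8 heart muscle markers, with a sum of 12631 against at most 1886 elsewhere. Its atrial light chain Myl7 stood at 1124, against at most 4.1 in any other library. The share of counts in mRNAs of mitochondrial DNA was 7.09%, 3.09%, 5.93% and 2.30% in knockouts 5 to 8, against 7.25%, 6.15%, 10.5% and 9.44% in controls 1 to 4. All differences below are knockout minus control on the scale log2(normalized count + 1), tested with limma over all 15657 genes with Benjamini-Hochberg adjustment at 0.05.

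None of the 10 mRNAs was called different in the knockout muscle. The estimate for Pdk4 itself was close to 0. The 5 estimates farthest from 0 were those of Mpc2 and Pdhb, with higher means in the knockouts, and of Pdha1, Pdk1 and Mpc1, with lower ones. Within both pairs of partner subunits, E1 and the carrier, the estimates had opposite signs. The smallest adjusted p of the 10 was 0.0987, for Mpc2, and the largest 0.873, for Pdk4. At an unadjusted p under 0.05 there were 5 of 10 members, Pdhb and Mpc2 with higher and Pdk1, Pdha1 and Mpc1 with lower estimates, where 26.9% of all tested genes were at that level. No member separated the 4 knockouts from the 4 controls without overlap, which 13.1% of all tested genes did. The median difference of the members was -0.08, with 4 higher and 6 lower estimates, beside a median of 0.0026 over all tested genes. In whole tissue, fewer cells of a type and less RNA per cell cannot be told apart.

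**Figure D1:**
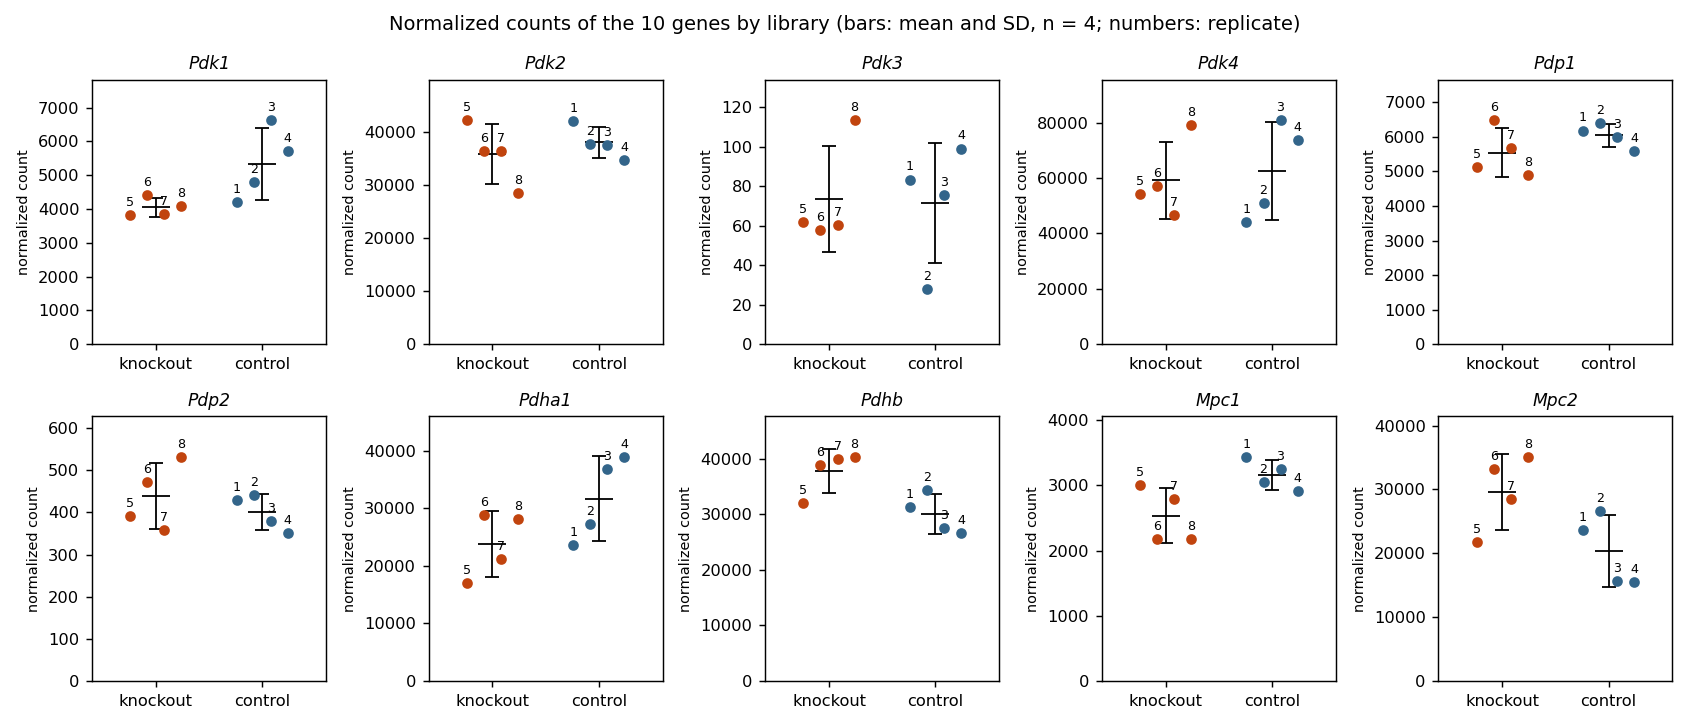
Normalized count of each of the 10 genes in every library, with knockouts (replicates 5 to 8) left of controls (replicates 1 to 4), and bars for the mean and SD (n = 4). For no gene do the 4 knockout points all lie outside the range of the 4 control points; control replicates 3 and 4 are the 2 highest points for Pdk1 and Pdha1 and the 2 lowest for Pdhb and Mpc2.

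Pdk4, the kinase most responsive to fasting and fat, had normalized counts of 54331, 56996, 46585 and 78957 in knockouts 5 to 8, against 44026, 50960, 80891 and 73588 in controls 1 to 4. Both groups had high and low libraries and overlapped over nearly their whole ranges: knockout 8 and controls 3 and 4 were high, the other 5 low. The means were 59217 ± 13881 in knockouts and 62366 ± 17659 in controls (SD, n = 4 each). The difference was -0.06 (SE 0.20; limma adjusted p = 0.873). Its 95% interval ran from -0.49 to 0.37, so that on this scale a knockout level between 0.714 and 1.29 times that of the controls was within the error.

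The Pdk4 estimate depended on which libraries were kept. Without control replicates 3 and 4 it was 0.29 (SE 0.18; limma adjusted p = 0.686). Leaving out knockout replicate 8 gave -0.20 (limma adjusted p = 0.566). Knockout 8 was the library with heart muscle markers, and heart is a tissue known to express Pdk4. The part of those markers in its Pdk4 level was not tested. Once the trend of each library with gene length and GC content was taken out, the Pdk4 difference was 0.05.

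Pdk2, the kinase found in most tissues, was the other abundant kinase in this muscle. Its normalized counts were 42189, 36456, 36292 and 28403 in knockouts 5 to 8, against 42005, 37616, 37538 and 34732 in controls 1 to 4. The groups overlapped, and knockout 8, the highest knockout for Pdk4, was the lowest library for Pdk2. The difference was -0.09 (SE 0.13; 95% interval -0.37 to 0.18; limma adjusted p = 0.659). It was 0.01 without knockout 8, -0.16 without controls 3 and 4 and -0.24 once the length and GC trend was taken out.

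Pdk1, a kinase also known as a target of hypoxia signalling, had normalized counts of 3820, 4413, 3865 and 4093 in knockouts 5 to 8, against 4207, 4808, 6634 and 5714 in controls 1 to 4. All 4 knockouts lay below the control median, but knockout 6 lay above control 1. The means were 4048 ± 271 in knockouts and 5341 ± 1061 in controls (SD, n = 4 each), which put the difference at -0.38 (SE 0.14; limma adjusted p = 0.107). By exact two-sided permutation its p was 0.0571, where 0.0286 is the smallest that 4 against 4 can give. Controls 3 and 4 were the 2 highest libraries. Without them the estimate was -0.15, and with control 1 left out it was -0.49 and was called (limma adjusted p = 0.0378).

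Pdk3 was the rarest of the kinases, with only 28 to 146 reads per library. Normalized counts were 62.1, 58.0, 60.5 and 113.5 in knockouts 5 to 8, against 83.4, 28.1, 75.4 and 99.1 in controls 1 to 4. The lowest and the second-lowest values came from different groups, and knockout 8 alone stood above all controls. The difference was 0.12 with a wide 95% interval, from -0.71 to 0.95 (limma adjusted p = 0.861). Without knockout 8 it was -0.11, and without control 2, the lowest library, -0.27.

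Pdp1, the calcium-stimulated phosphatase catalytic subunit prominent in muscle, had normalized counts of 5119, 6484, 5662 and 4895 in knockouts 5 to 8, against 6182, 6403, 5980 and 5601 in controls 1 to 4. Knockout 6 was the highest library of all and knockout 8 the lowest. The difference was -0.13 (SE 0.11; limma adjusted p = 0.463), or 0.05 with the length and GC trend removed. Pdp2, the calcium-insensitive form, was far scarcer: 391, 472, 359 and 532 in knockouts 5 to 8, against 430, 442, 380 and 350 in controls 1 to 4. The groups overlapped, with the highest library a knockout and the lowest a control. Its difference was 0.12 (SE 0.16; limma adjusted p = 0.657), and -0.01 without controls 3 and 4.

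The E1 subunits form a tetramer of paired alpha and beta chains, and their mRNAs had estimates of opposite sign. Pdha1, the alpha chain that the kinases phosphorylate, had normalized counts of 16957, 28911, 21182 and 28144 in knockouts 5 to 8, against 23588, 27335, 36916 and 38994 in controls 1 to 4. Knockouts 6 and 8 lay above controls 1 and 2, so the groups overlapped, and controls 3 and 4 were far above every other library. The means were 23799 ± 5735 in knockouts and 31708 ± 7422 in controls (SD, n = 4 each). The difference was -0.42 (SE 0.19; limma adjusted p = 0.181) with all libraries, -0.13 without controls 3 and 4 and -0.265 without knockout 5, the lowest library.

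Pdhb, the beta chain, had normalized counts of 31984, 38940, 39943 and 40392 in knockouts 5 to 8, against 31293, 34475, 27582 and 26624 in controls 1 to 4. Only knockout 5 and control 2 crossed: the other 3 knockouts lay above all controls. The means were 37815 ± 3934 in knockouts and 29994 ± 3603 in controls (SD, n = 4 each). The difference was 0.34 (SE 0.12; limma adjusted p = 0.111), and 0.20 without controls 3 and 4. The exact two-sided permutation test gave p = 0.0571. Counting could blur both subunits. Of the 50-base stretches of the longest coding Pdhb transcript, 30.3% also occur in Gm6123, and 16.1% of the exon bases of Pdha1 lie opposite exons of Map3k15. Whether the counting used strand is not stated in the sources used here.

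The carrier subunits, which work as a heterodimer, also had estimates of opposite sign. Mpc1 had normalized counts of 3005, 2173, 2792 and 2180 in knockouts 5 to 8, against 3440, 3047, 3247 and 2914 in controls 1 to 4. Knockouts 6, 7 and 8 were below all controls, and knockout 5 was above control 4 only. The means were 2538 ± 426 in knockouts and 3162 ± 231 in controls (SD, n = 4 each), which put the difference at -0.33 (SE 0.13; limma adjusted p = 0.127). Its exact two-sided permutation p was also 0.0571. Unlike the other members at an unadjusted p under 0.05, Mpc1 had an estimate no nearer to 0 without controls 3 and 4 (-0.37; limma adjusted p = 0.610). Removing the length and GC trend took it to -0.54, short of the threshold at a limma adjusted p of 0.0565. Of the 50-base stretches of its longest coding transcript, 29.6% occur in other genes, among them the pseudogene Mpc1-ps, and 23.1% of its exon bases lie opposite 4930506C21Rik.

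Mpc2 had normalized counts of 21737, 33155, 28573 and 35126 in knockouts 5 to 8, against 23637, 26580, 15587 and 15482 in controls 1 to 4. Knockouts 6, 7 and 8 were above all controls, knockout 5 was below controls 1 and 2, and controls 3 and 4 were the 2 lowest libraries. The means were 29648 ± 5946 in knockouts and 20321 ± 5657 in controls (SD, n = 4 each). The difference of 0.56 (SE 0.19; limma adjusted p = 0.0987) was the largest of the 10 members. It was 0.22 without controls 3 and 4 and 0.28 with the length and GC trend removed. With control 2 left out it was 0.71 and was called (limma adjusted p = 0.0294). That last fit called 2048 of 15664 genes, and of the 10 members only Mpc2.

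Control replicates 3 and 4 were together at the top or bottom for 4 of the 10 members: highest for Pdk1 and Pdha1, lowest for Pdhb and Mpc2. For these 4 the difference without them lay nearer to 0, which is largely set by how the 4 were picked. None of the 10 members was called in that fit, which holds fewer controls and called 1 gene in all. Across all genes, longer transcripts had lower differences (Spearman rho = -0.46 across 15136 genes, which are not independent replicates).

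**Figure D2:**
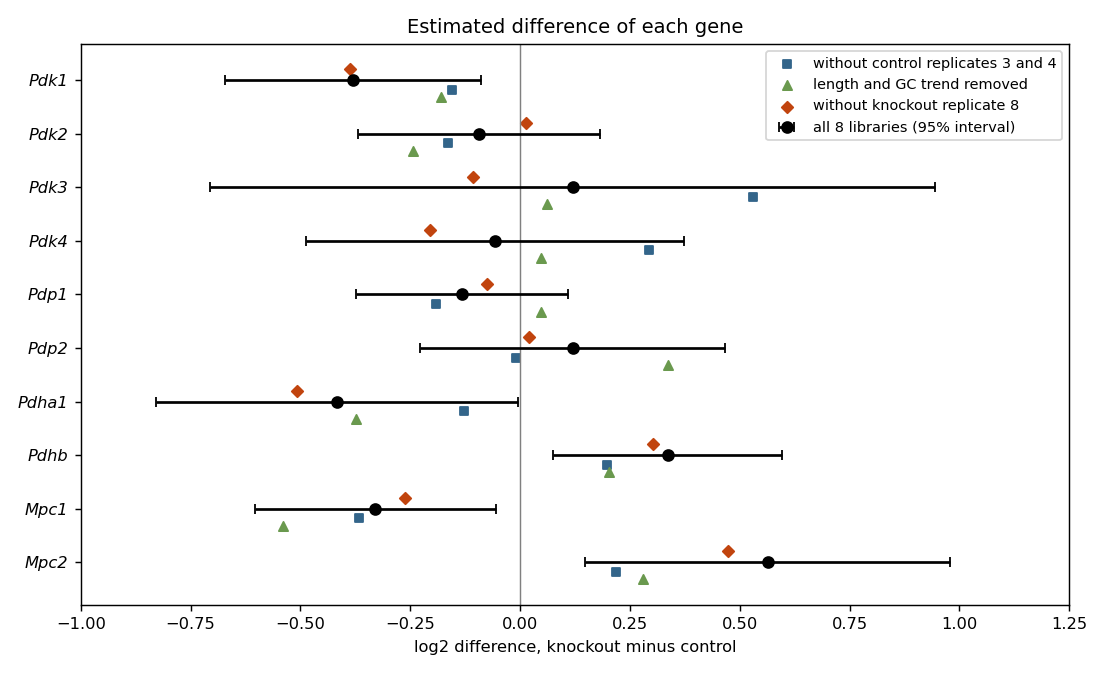
Log2 difference, knockout minus control, of each of the 10 genes, with the 95% interval from all 8 libraries (circles) and the estimates without control replicates 3 and 4 (squares), with the length and GC trend removed (triangles) and without knockout replicate 8 (diamonds). The intervals of Pdk1, Pdha1 and Mpc1 lie below 0 and those of Pdhb and Mpc2 above it before adjustment over all genes; the squares of Pdk1, Pdha1, Pdhb and Mpc2 lie nearer to 0 than their circles.

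Levels of different genes were compared per kilobase of the longest coding transcript in GENCODE M21, over all 8 libraries. The order of the mean normalized counts per kilobase was Mpc2 at 24375, Pdhb at 22409, Pdk4 at 17449, Pdk2 at 16431, Pdha1 at 9745, Mpc1 at 2966, Pdp1 at 1378, Pdk1 at 905, Pdp2 at 73.7 and Pdk3 at 34.3. Among the first 4, neighbours changed places between libraries: Mpc2 exceeded Pdhb in 6 of 8 libraries, Pdhb exceeded Pdk4 in 6 and Pdk4 exceeded Pdk2 in 4. Pdhb exceeded Pdk2, which is not its neighbour, in 8 of 8. Every later step, from Pdk2 to Pdha1 down to Pdp2 and Pdk3, had the same order in 8 of 8. Pdk4 lay above 98.4% of tested genes on this scale and Pdk3 above 23.4%. The top of the order depended on the length used. Per kilobase of all exons together, Pdk4 came first, Pdk2 next and Mpc2 only after Pdhb and Pdha1, since the exons of Mpc2 together span 7344 bases and its longest coding transcript 1025.

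**Figure D3:**
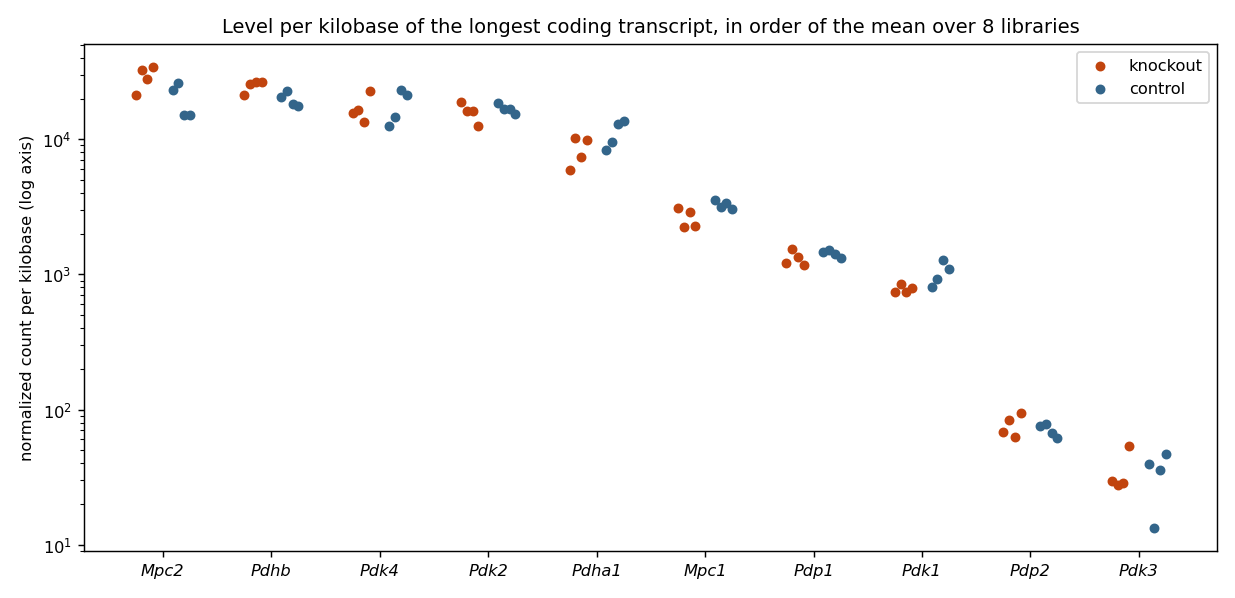
Normalized count per kilobase of the longest coding transcript (log axis) for each gene in every library, knockouts left of controls, in order of the mean over all 8 libraries. Mpc2, Pdhb, Pdk4 and Pdk2 overlap at the top, and Pdp2 and Pdk3 lie far below the rest.

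Within the kinases, the shares of the summed level per kilobase showed which form dominated. Pdk4 made up 44.4%, 48.9%, 44.1% and 62.7% in knockouts 5 to 8, against 39.3%, 45.3%, 56.3% and 56.0% in controls 1 to 4. Pdk2 held nearly all of the rest, averaging 47.6% in knockouts and 47.9% in controls, while Pdk1 held at most 3.10% and Pdk3 at most 0.148% in any library. The shares of Pdk4 and Pdk2 thus varied more within each group than between the means. The small Pdk1 share averaged 2.32 ± 0.21% in knockouts and 2.85 ± 0.24% in controls (SD, n = 4 each). Its ranges overlapped, from 2.10% to 2.54% in knockouts and from 2.52% to 3.10% in controls, and it was not tested. Pdk4 exceeded Pdk2 in knockouts 6 and 8 and in controls 3 and 4. These shares depend on the length used. Per kilobase of all exons together, Pdk4 averaged 17315 and Pdk2 11667 over the 8 libraries, which raises the share of Pdk4. The kinases summed to 24.5 ± 4.1 times the phosphatases in knockouts and 23.9 ± 4.0 times in controls (SD, n = 4 each).

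The ratio of the E1 subunits was chosen for display after its values were seen and was not tested. Pdha1 over Pdhb, per kilobase, was 0.282, 0.394, 0.282 and 0.370 in knockouts 5 to 8, against 0.400, 0.421, 0.711 and 0.778 in controls 1 to 4. The groups did not overlap, though knockout 6 and control 1 nearly met. The size of this ratio depends on the length used. Per kilobase of all exons together it is higher, as Pdha1 averaged 7433 and Pdhb 8781 over the 8 libraries. Mpc2 over Mpc1 was 6.78, 14.3, 9.59 and 15.1 in knockouts 5 to 8, against 6.44, 8.18, 4.50 and 4.98 in controls 1 to 4. Here knockout 5 lay below control 2, so the groups overlapped. Per kilobase of all exons together Mpc2 over Mpc1 was lower, from 2.05 to 4.57 in knockouts and from 1.36 to 2.47 in controls.

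**Figure D4:**
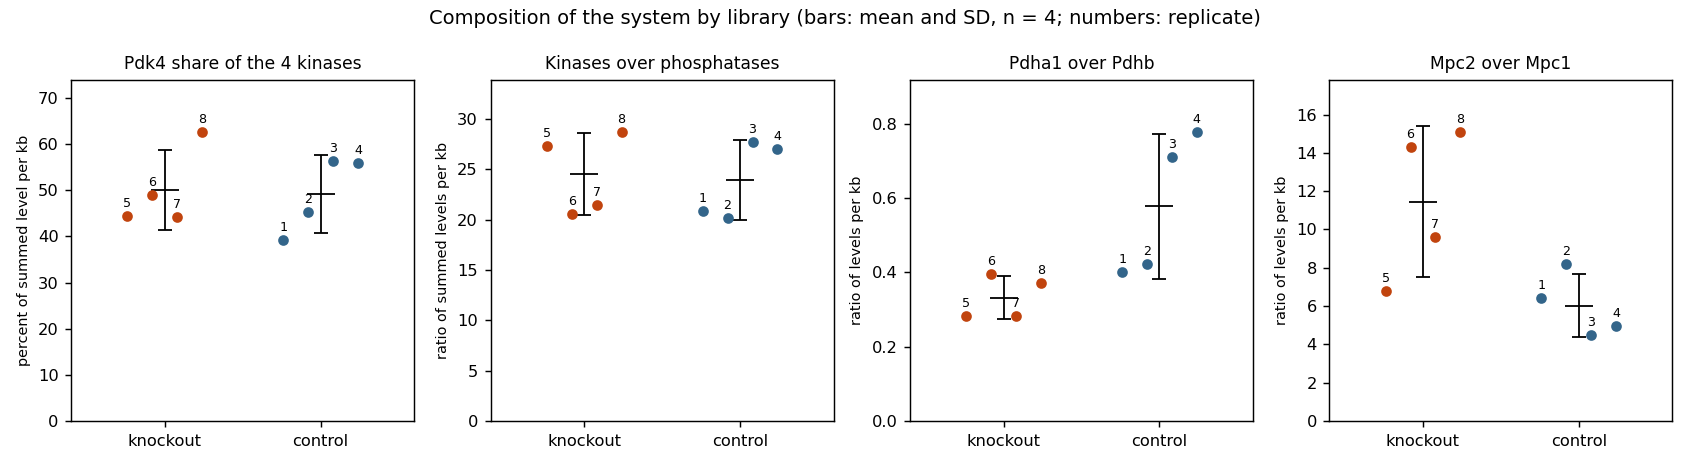
Composition of the system in every library from levels per kilobase, knockouts left of controls, with mean and SD (n = 4): the Pdk4 share of the 4 kinases in percent, kinases over phosphatases, Pdha1 over Pdhb and Mpc2 over Mpc1. The first 2 panels show overlapping groups, with kinases at 24.5 times the phosphatases in knockouts and 23.9 times in controls on average; in the third, the knockouts lie between 0.282 and 0.394 and the controls between 0.400 and 0.778.

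Across the 8 libraries some members varied together, which is given here as a description, since the libraries share depth and group structure. Pdhb and Mpc2 had Pearson r = 0.97 and Spearman rho = 0.95 on the log2 scale (n = 8), and r = 0.91 without controls 3 and 4 (n = 6). Pdk1 and Pdha1 had r = 0.86, and 0.74 without those libraries. Mpc1 and Mpc2 ran opposite, at r = -0.70, and -0.90 without controls 3 and 4. Pdk4 and Pdk2 also ran opposite, at r = -0.63, and -0.83 without them. Pdk2 and Mpc1 had r = 0.72, and 0.78 without controls 3 and 4. Pdhb and Mpc1 had r = -0.71, and -0.83 without these. Some of the other pairs did not keep their r. Pdk1 and Mpc2 had r = -0.74, and 0.21 without controls 3 and 4. Pdk1 and Pdhb had r = -0.73, and -0.05 without them.

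The genes whose pattern was most like that of Pdk4 over the 8 libraries, among 11589 genes averaging a normalized count of 100 or more, were Stk35 (r = 0.97), Ptpdc1 (r = 0.95), Zscan2 (r = 0.95), Hdgfrp3 (r = 0.94) and Wdr66 (r = 0.93). Stk35, a serine/threonine kinase, had normalized counts of 365, 362, 296 and 449 in knockouts 5 to 8, against 323, 355, 465 and 435 in controls 1 to 4. Its high libraries were those of Pdk4: knockout 8 and controls 3 and 4. The 5 were picked for the pattern of Pdk4 over these same libraries, so small differences between the groups follow from that choice. Their differences lay between -0.15 and 0.14, and none was called.

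Around the members, 7 lists of genes of the same pathway or its regulation were examined, 94 different tested genes in all. None was called. At an unadjusted p under 0.05, 9 had higher and 16 lower estimates, where 13.6% and 13.3% of all tested genes did. Of the genes listed, Pdha2, Mpc1l and Ppard were not tested, since no reads were found under these symbols. That does not show whether they were expressed.

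Among the other subunits and relatives of the complex, 0 of 6 were called and the median difference was -0.02. Dlat, the E2 core, averaged 20185 ± 1741 in knockouts and 21725 ± 1897 in controls (SD, n = 4 each), and Pdhx, which anchors E3 to the core, 9662 ± 1283 in knockouts and 8346 ± 646 in controls. Pdpr, the regulatory subunit of the phosphatase, had the widest gap. Its normalized counts were 839, 1481, 1021 and 1204 in knockouts 5 to 8, against 1661, 2030, 7617 and 8364 in controls 1 to 4. The groups did not overlap, but controls 3 and 4 were several times above every other library. The difference was -1.78 (SE 0.59; limma adjusted p = 0.119), and -0.72 (SE 0.19; limma adjusted p = 0.584) without controls 3 and 4.

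The genes that make or deliver the cofactors of the complex, lipoate and thiamine pyrophosphate, had mostly higher estimates: 6 of 7 were above 0 and the median was 0.24, or 0.06 without controls 3 and 4. None was called. Mecr, which makes the fatty acid precursor of lipoate in mitochondria, had normalized counts of 1474, 1557, 1456 and 1797 in knockouts 5 to 8, against 1378, 1210, 939 and 803 in controls 1 to 4. The knockouts were all above the controls, of which 3 and 4 were the lowest. The difference was 0.56 (limma adjusted p = 0.0796), and 0.28 without those 2 controls. Ndufab1, the mitochondrial acyl carrier protein on which that precursor is built, and Lias, the lipoyl synthase, had differences of 0.31 and 0.27 (limma adjusted p = 0.133 and 0.158), and 0.14 and 0.13 without them.

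Of the genes for pyruvate supply and its other fates, 0 of 19 were called, with 11 higher and 8 lower estimates and a median of 0.05. Ldha, the muscle lactate dehydrogenase subunit, averaged 323580 ± 15945 in knockouts and 265498 ± 35565 in controls (SD, n = 4 each; difference 0.29; limma adjusted p = 0.152), with no overlap between the groups and controls 3 and 4 lowest. Slc16a7, a monocarboxylate transporter with high affinity for pyruvate, was rare: 102, 89.0, 101 and 57.4 in knockouts 5 to 8, against 29.5, 72.3, 38.1 and 38.7 in controls 1 to 4. Only control 2 reached into the knockout range. The difference was 1.00 (SE 0.33; limma adjusted p = 0.0914), and 0.86 without controls 3 and 4. Gpt, an alanine aminotransferase that interconverts pyruvate and alanine, had a difference of 0.33 (limma adjusted p = 0.146). Without controls 3 and 4, Ldha differed by 0.16 and Gpt by 0.11, and Gpt by 0.09 once the length and GC trend was taken out.

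The transcription factors and coactivators known to act on Pdk4 gave 0 of 17 called, with 7 higher and 10 lower estimates and a median of -0.13. Ppara is a fatty acid receptor known to act on Pdk4. Its normalized counts were 74.7, 160, 112 and 114 in knockouts 5 to 8. In controls 1 to 4 they were 101, 188, 356 and 301. The groups overlapped through control 1, and the difference was -0.93 (SE 0.35; limma adjusted p = 0.121), or -0.31 without controls 3 and 4. Esrra, an orphan receptor that acts with PGC-1 on Pdk4, had a difference of 0.36 (limma adjusted p = 0.146), and Nr3c1, the glucocorticoid receptor, -0.33 (limma adjusted p = 0.176). They were 0.08 and -0.05 without controls 3 and 4. Rxra and Foxo4, which with Esrra had the highest counts of the list, differed by -0.20 and -0.13 (limma adjusted p = 0.267 and 0.483).

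Other genes that fasting or fat raises or lowers in muscle gave 0 of 20 called and a median of 0.08, with 12 higher and 8 lower estimates. Fbxo32, the ubiquitin ligase atrogin-1, had normalized counts of 2481, 2200, 1202 and 687 in knockouts 5 to 8, against 2771, 2813, 6817 and 7581 in controls 1 to 4. The groups did not overlap, with controls 3 and 4 far above the rest. The difference was -1.62 (SE 0.53; limma adjusted p = 0.116), and -0.94 without them. Txnip, which restrains glucose uptake, differed by 0.29 and Acacb, which makes the malonyl-CoA that restrains fatty acid import, by -0.38 (limma adjusted p = 0.130 and 0.121). Without controls 3 and 4, the 2 highest libraries for Acacb, its difference was -0.11, while that of Txnip was 0.28.

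Genes that insulin lowers or hypoxia raises, set beside Pdk4 and Pdk1, gave 0 of 12 called, with 3 higher and 9 lower estimates and a median of -0.15. Insr, the insulin receptor, averaged 3363 ± 172 in knockouts and 4751 ± 1152 in controls (SD, n = 4 each), with no overlap and controls 3 and 4 highest. The difference was -0.47 (limma adjusted p = 0.0881), and -0.17 without those 2 controls. Bnip3, a mitophagy receptor raised by hypoxia, differed by -0.25 and Igfbp5, a secreted binding protein of insulin-like growth factors, by -0.36 (limma adjusted p = 0.15 and 0.167). Controls 3 and 4 were also the 2 highest libraries for Igfbp5, whose difference was -0.10 without them. That of Bnip3 was then -0.19.

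The clock genes were examined because Pdk4 is known to vary over the day and all muscle was taken in the morning. Of 14, 13 had lower and 1 a higher estimate, where 50.3% of all tested genes had a higher one, and the median was -0.29. None was called. At an unadjusted p under 0.05 there were 6 with lower and 1 with a higher estimate. Per2, a repressor of the core clock, had normalized counts of 62.1, 59.3, 60.5 and 68.4 in knockouts 5 to 8, against 84.4, 99.5, 81.2 and 134 in controls 1 to 4, with no overlap (difference -0.64; limma adjusted p = 0.127). Nr1d1, the repressor REV-ERB alpha, and Hlf, an output factor of the clock, differed by -0.63 and -0.49 (limma adjusted p = 0.140 and 0.132). Hlf differed by -0.25 without controls 3 and 4, its 2 highest libraries. In that fit Per2 differed by -0.55 and Nr1d1 by -0.65. The median of the list was -0.20 without controls 3 and 4 and -0.12 once the length and GC trend was taken out. The hour at which each muscle was taken is not given per library, and its part was not tested.

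**Figure D5:**
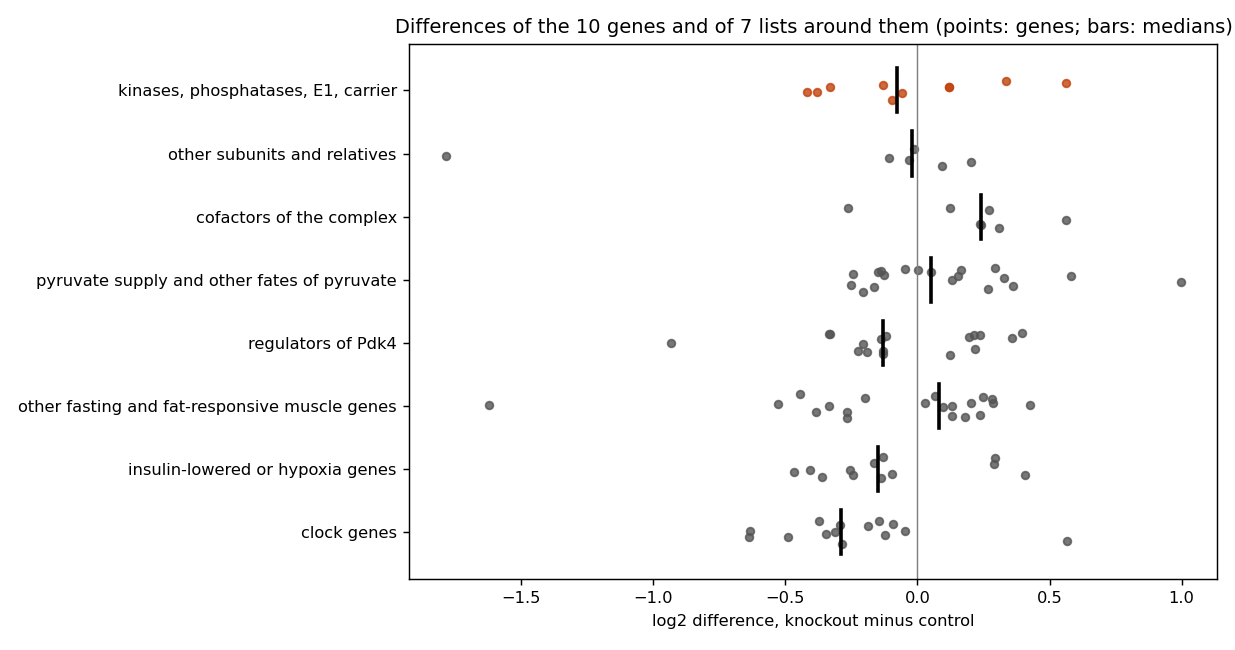
Log2 difference, knockout minus control, of the 10 members (top, coloured) and of the tested genes of each of the 7 lists (grey), with black bars for medians. The members' median is -0.08 and that of the clock genes -0.29; the lowest points are Pdpr at -1.78 and Fbxo32 at -1.62, and the highest is Slc16a7 at 1.00.

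Markers of other cells in the tissue differed between libraries, and their part in these values was not tested. The 7 macrophage markers, among them the complement genes C1qa, C1qb and C1qc, summed to between 6723 and 10991 in knockouts and between 4413 and 6507 in controls, with 7 of 7 estimates higher. The 6 fibro-adipogenic progenitor markers summed to between 51940 and 69155 in knockouts and between 43204 and 56870 in controls. The 8 markers of slow and oxidative fibres summed to between 74227 and 160554 in knockouts and between 75760 and 238675 in controls. Of the 8, 4 were highest in knockout 6 and 4 in control 3, among them Myh2, the myosin heavy chain that made up most of the sum. Ucp1, the brown fat uncoupling protein, stood at 1458 in knockout 5 and 885 in knockout 8, against at most 133 in the other libraries, and was at 0 in knockout 7 and control 4. Cidea was also highest in knockouts 5 and 8, at 928 and 858, but Ppargc1a was lowest there, at 1370 and 1508. Elovl3 was at 4.1 to 17.1 in all libraries. Of the 6 white adipocyte markers, 5 were highest in knockout 5. They summed to between 8244 and 19734 in knockouts and between 6549 and 15682 in controls. The 5 brown adipocyte markers together summed to between 36982 and 46902 in knockouts and between 20208 and 37570 in controls. Most of each sum was Cox8b, a gene that muscle also expresses, at 33213 to 43634 in knockouts and 18024 to 35681 in controls. Of the 8 heart markers, Nppa was at 0 in knockout 6 and controls 2 and 3, and Myl7 in knockouts 5, 6 and 7 and control 1.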

How the data were processed

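White quadriceps RNA of 4 knockout and 4 control samples was sequenced from Norgen Biotek extracts and NEBNext Ultra II libraries, per the labels' protocols. The submitters' processing notes name cutadapt, FastQC, STAR, HTSeq, DESeq2 and the build GRCm38. Neither versions nor the annotation or strand setting were found in the sources used here. The authors deposited values on a log2 scale, not divided by gene length. Their form was inferred: after 2 was raised to each value and 1 taken away, each sample had a step of which all values are whole multiples (100% of those from 1 to 1000 reads were within 0.1 of a whole number). Reads divided by a size factor would look so. The 95% intervals rest on the spread between libraries in the limma fit. Depth was 55283989 to 109101279 reads.

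The test was limma (3.58.1, under R 4.3.3) on log2(normalized count + 1) for the 15657 genes that averaged 10 or more, using eBayes with trend and robust switched on, and p-values were adjusted by Benjamini-Hochberg, with the threshold at 0.05. This scale understates the change of low genes. Since the deposited unit is log2, no count test was the main one, and limma voom on the recovered reads was an alternative. Exact permutation tests were two-sided. Within groups, the chi-square per gene between libraries was 35.4 to 265, above the value near 1 that a library deposited repeatedly would give. That does not show separate animals. Lengths, overlaps and repeated 50-base stretches came from GENCODE M21 on GRCm38, promoter letters from RefSeq on GRCm38.p6.

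The members and lists were chosen with earlier results of these data known. The named genes are the members, Acot2, the 3 of smallest p in each list, the 3 transcription factors of highest count, and the 5 genes most correlated with Pdk4; marker genes named beside them were chosen after their values were seen. As alternatives, the pseudocount, the filter, the scaling and the variance model were changed, together with removal of the length and GC trend (loess, span 0.5), and libraries left out. The fit that removes the trend and control replicates 3 and 4 together was chosen after seeing the data. The fit was tested on simulated reads, drawn gene by gene and so without the shared pattern of control replicates 3 and 4. It called 28.4% of genes changed 1.5-fold, 73.1% of those changed 2-fold and 92.4% of those changed 4-fold. It also called 6 unchanged genes. Most changes of 1.5-fold were thus missed, so a member not called may still differ by that much. Tables and plots were made in Python 3.11.15 (pandas 2.3.3, numpy 2.4.6, matplotlib 3.10.9, scipy 1.17.1).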

Additional observations from a re-analysis of the deposited data

Results flagged for a closer look

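In 68 groups of 4 libraries (both groups of the members, of Acot2 and of the named list genes), 1 library was looked for that lay far from the other 3, a pattern that chance gives in about 1 of 20 groups. There were 2. Pdk3 stood at a normalized count of 113.5 in knockout replicate 8, where the other knockouts lay between 58.0 and 62.1. Gpt stood at 3028 in knockout replicate 7, where the other knockouts lay between 2748 and 2770.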

How the results depend on the processing

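Over 22 alternatives Acot2 was called each time, with differences from -3.38 to -3.06. The differences of Pdha1, Pdhb, Mpc1, Mpc2 and Pdk1 kept their sign in all 22. Others changed sign, and the cause was not tested. With the length and GC trend removed, Pdk4 was 0.048 and Pdp1 0.047. Without control replicates 3 and 4, Pdk4 was 0.29 and Pdp2 -0.0086, and with both changes together Pdk4 was 0.31. Without knockout replicates 6 and 8, Pdk2 was 0.0466, Pdk3 -0.0812 and Pdp2 -0.0906. Leaving out 1 library at a time gave Pdk4 from -0.21 to 0.0827, Pdk2 from -0.18 to 0.0126, Pdk3 from -0.27 to 0.32, Pdk1 from -0.49 to -0.27, Pdp1 from -0.21 to -0.08, Pdp2 from 0.02 to 0.21, Pdha1 from -0.55 to -0.265, Pdhb from 0.28 to 0.41, Mpc1 from -0.42 to -0.26 and Mpc2 from 0.45 to 0.71. Pdk3 was not tested at a minimum count of 100, so it had 21 alternatives.

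The number of genes called, 1 with all libraries, was 2 with no filter, 2 with equal totals, 7 without trend and robust, 1201 with sample quality weights, 7 with the length and GC trend removed and 2 without knockout replicates 6 and 8. It ranged from 1 to 2048 with 1 library left out: 1720 without control 1, 2048 without control 2 and 2 without knockout 6. Members called ranged from 0 to 1 and list genes from 0 to 7 with 1 library left out, and 2 list genes (Mecr and Insr) were called with quality weights. limma voom on the recovered reads called 1 gene. Among the members, depth was least for Pdk3, at 28 reads in its lowest library. No paired analysis was possible because the groups share no replicate number.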
